A study of Rattus norvegicus with 108 samples.

Results

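The dorsal and the ventral dentate gyrus of fluoxetine-treated rats were compared by single-cell RNA-seq. The cells were chosen from the labels: those of the dorsal dentate gyrus (dorDG) or the ventral dentate gyrus (venDG) of rats given fluoxetine (FT), which are 1819 of the 3347 cells used from the series. Both groups came from male Long-Evans rats of Charles River stock, 2 months old, that received fluoxetine, a selective serotonin reuptake inhibitor, at 18 mg/kg for 6 weeks, so the drug is shared by both and region is the contrast. The dorDG FT group held 570 cells in 4 replicates (1, 2, 4 and 5, with 143, 197, 131 and 99 cells) and the venDG FT group held 1249 cells in 5 replicates (227, 384, 343, 176 and 119 cells). Rats given water instead of the drug (Sham) supplied 1528 cells of the same regions, and they are used here only to set the regional difference without the drug beside the one with it. Each replicate is a pool of micro-punches from several animals, and a replicate is the unit of every test, so p-values measure the spread between pools. The labels speak of nuclei, whereas the study's methods describe whole cells as well as nuclei.

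The dentate gyrus is the entrance of the hippocampal circuit. Its granule cells receive cortical input, project to CA3 and are replaced by adult neurogenesis, and they are marked by the transcription factor Prox1. The dorsal part is known for its role in spatial memory and the ventral part for its role in anxiety and stress responses, and granule cells of the 2 poles are known to express different genes.

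RNA molecules were counted by their unique molecular identifiers (UMIs). The dorDG FT replicates held 583739 to 885307 UMIs and the venDG FT replicates 657107 to 1523537. Values are given as UMIs per 10000 UMIs of the cells summed, and fold changes as log2 of dorDG over venDG, so a positive value is higher in dorDG. A gene was called at an adjusted p of at most 0.2 (edgeR quasi-likelihood test, Benjamini-Hochberg) and a log2 fold change of at least 0.32 in either direction. Because samples with the same replicate number deviated together, each fit was repeated with a block for the replicate number, and its value is given where it changes a call. The block fit uses numbers 1, 2, 4 and 5 and so leaves out venDG FT replicate 3. Counts summed over cells cannot tell fewer cells of a type from less RNA per cell.

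Some libraries stood apart. Replicates 1 and 2 of each region were run as 2 reactions, and the second held mostly cells with under 2% of their UMIs in ribosomal protein genes (78.3% and 92.5% of its cells in dorDG, 95.9% and 91.0% in venDG), against 7.69% to 23.5% in all other reactions. Such low-ribosomal cells made up 20.3%, 42.1%, 14.5% and 15.2% of the dorDG replicates and 38.8%, 50.3%, 16.9%, 22.2% and 23.5% of the venDG replicates. The replicates overlapped in this share (23.0% ± 13, SD, n = 4, against 30.3% ± 13.8, n = 5; two-sided exact permutation test, p = 0.365, adjusted p = 0.738). Across the 78 pairs of FT reactions, 2 cell barcodes were shared.

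Ttr and Arhgap28 showed which differences rested on 1 pool. Ttr, which encodes transthyretin and is made in brain by the choroid plexus, was at 0, 0, 21.8 and 0.994 UMIs per 10000 in dorDG FT replicates 1, 2, 4 and 5, and between 0 and 0.0761 in the 5 venDG replicates. Its high level was that of replicate 4 in every cell class tested, from 17.9 in Microglia-like to 45.6 in Astrocyte-like cells. Of the 6 ependymal or choroid markers in the tables, Ttr alone passed the filter on low values. Arhgap28, which encodes a GTPase-activating protein, was at 71.7 in venDG FT replicate 2 and between 0.169 and 0.315 in the other 8 replicates. In that replicate it ranged from 5.62 in OPC-like to 93.9 in Granule-like cells. Ttr was called as higher in dorDG in Astrocyte-, Endothelial- and OPC-like cells, and Arhgap28 as lower in Astrocyte-like cells, but each difference was that of a single pool. With the replicate block Ttr was called over all cells and in all 7 classes tested, and Arhgap28 in 5 of the 6 classes other than Oligodendrocyte-like cells and in those as well, from the same single pools.

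**Figure D1:**
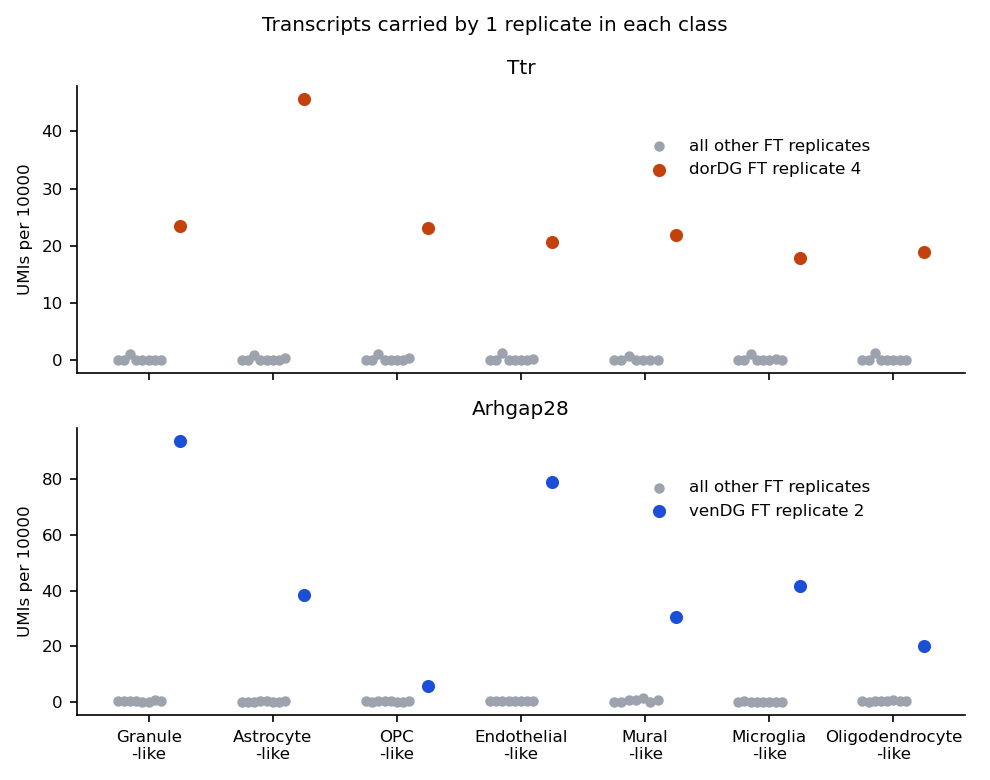
Levels of Ttr (upper panel) and Arhgap28 (lower panel) in each cell class tested, in UMIs per 10000, with 1 point per FT replicate of dorDG and venDG and the replicate that stands apart drawn in colour. Ttr is high in dorDG FT replicate 4 alone and Arhgap28 in venDG FT replicate 2 alone, in every class drawn.

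Over all cells, few genes separated dorDG from venDG. In total 11 of 3994 genes tested were called (0.275%), 10 higher and 1 lower in dorDG, and 8 of the 11 were unnamed loci. The named ones were all higher in dorDG. Cct6b, a subunit of a chaperonin family, was at 3.01, 2.61, 2.76 and 2.67 UMIs per 10000 in dorDG FT replicates 1, 2, 4 and 5 and at 1.44, 1.23, 0.696, 1.12 and 1.95 in venDG FT replicates 1 to 5. All dorDG values lay above all venDG values, with a log2 fold change of 1.12 ± 0.23 (SE; edgeR adjusted p = 0.187). Ftl1, the ferritin light chain that stores iron, was at 1.18, 1.05, 0.992 and 1.1 against 0.743, 0.406, 0.453, 0.626 and 0.335, again without overlap (log2 fold change 1.08 ± 0.22, edgeR adjusted p = 0.187). Rps14, a protein of the small ribosomal subunit, was at 0.645, 0.768, 0.655 and 0.976 against 0.362, 0.297, 0.249, 0.531 and 0.411 (1.07 ± 0.23, edgeR adjusted p = 0.187). Its venDG mean lay under the filter of 0.5, so it passed through the dorDG values only. Ribosomal protein and ferritin genes have near-identical copies, so reads may be split among them. Groups did not overlap for 94 genes higher in dorDG (2.35% of those tested) and for 26 genes lower (0.651%).

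The number of calls depended on single replicates and on the block. Without any 1 of the dorDG replicates 1 gene was called, without venDG FT replicate 2, 4 or 5 none, without replicate 1 10 and without replicate 3 37. Cct6b and Ftl1 kept their direction in all 9 of these runs and Rps14 in the 8 in which it passed the filter, with edgeR adjusted p between 0.104 and 0.771. In the block fit 269 of 4042 genes were called (6.66%), 164 higher and 105 lower, and they included all 11 above. Within cells of at least 2% ribosomal UMIs (424 in dorDG, 843 in venDG), 0 of 3742 genes were called by edgeR (0%), although DESeq2 called 20 and edgeR's unadjusted p was under 0.05 for 212. Without venDG FT replicate 1 edgeR called 6. There Cct6b (0.98), Ftl1 (0.98) and Rps14 (0.93) kept nearly the same log2 fold changes without overlap of the groups, at edgeR adjusted p of 0.584, 0.578 and 0.578. The block fit in those cells called 7 of 3762 genes (0.186%).

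**Figure D2:**
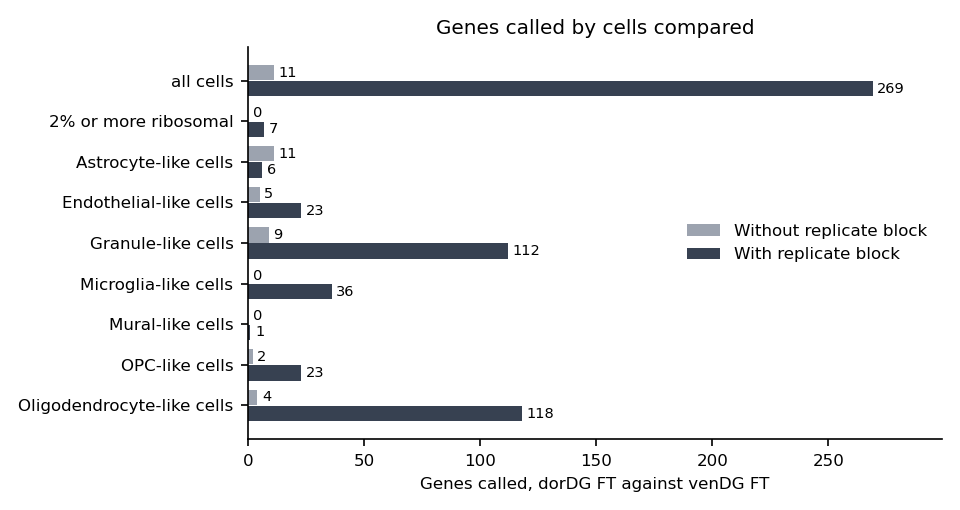
Number of genes (bar length) called in either direction between dorDG FT and venDG FT, over all cells, cells of at least 2% ribosomal UMIs and each cell class, with light bars for the fit without the replicate block and dark bars for the fit with it. Over all cells 11 genes were called without the block and 269 with it.

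Genes known to differ along the dorsoventral axis of the hippocampus were mostly too low to test, so the labelled regions could not be checked against them. Over all cells none of the 3 listed dorsal genes and 2 of the 8 listed ventral genes passed the filter. The dorsal genes Lct, Gsg1l and Wfs1 were at no more than 0.350 UMIs per 10000 in any replicate, and the ventral genes Trhr, Nr2f2, Dcn, Grp, Htr2c and Calb2 at no more than 0.504. Trhr, the thyrotropin-releasing hormone receptor, was at 0, 0, 0.0168 and 0.0171 in dorDG and at 0.114, 0.0145, 0.0459, 0.0545 and 0.0913 in venDG, that is, on very few UMIs. Both ventral genes that could be tested had lower values in dorDG. Nnat, which encodes the membrane protein neuronatin, was at 0.631, 1.90, 1.18 and 1.1 in dorDG and at 1.99, 3.87, 1.45, 2.26 and 2.63 in venDG. Its groups overlapped and it was not called (log2 fold change -1.03, edgeR adjusted p = 0.385), while in the block fit it fell by 1.21 on the log2 scale (edgeR adjusted p = 0.0168). Cadm1, a synaptic cell adhesion molecule, had a log2 fold change of -0.56 and was called in neither fit (edgeR adjusted p = 0.559 and 0.210). In Granule-like cells 1 of the 3 dorsal genes passed the filter. Its log2 fold change was -0.43 (block fit -0.85), lower in dorDG against its listed direction, and it was called in neither fit. The 2 ventral genes tested there also had negative log2 fold changes.

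Calls in the block fit included neuronal surface genes. Of 16 synaptic adhesion genes tested, none was called without the block and 6 were called lower with it, where 2.60% of all genes were. In cells of at least 2% ribosomal UMIs 0 of 13 were called in the block fit, and their median log2 fold change without the block was -0.06. Over all cells their median log2 fold change was -0.41, against -0.01 over all genes. Tenm4, a teneurin that takes part in matching synaptic partners, was at 0.497, 0.441, 0.235 and 0.343 in dorDG and at 1.61, 1.41, 0.479, 0.912 and 1.08 in venDG. All dorDG values lay under the filter of 0.5, so Tenm4 passed it through the venDG values only. Only venDG FT replicate 3 lay within the dorDG range (log2 fold change -1.52, edgeR adjusted p = 0.216), and in the block fit Tenm4 fell by 1.73 (edgeR adjusted p = 0.0119). Tenm2 (block fit -1.26, edgeR adjusted p = 0.0456) and the postsynaptic adhesion gene Nlgn1 (-0.88, 0.0520) were called with it.

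The receptor lists had lower calls in the block fit as well. Of 17 glutamate receptor genes tested, 4 were called lower in the block fit (2.60% of all genes), among them the AMPA receptor subunit Gria4 (-0.82, edgeR adjusted p = 0.0964), the kainate receptor subunit Grik1 (-0.86, 0.199) and the metabotropic receptor Grm5 (-0.70, 0.0456). Of 3 neurotrophin genes tested, the receptors Ntrk2 (-0.51, 0.138) and Ntrk3 (-0.63, 0.199) were called lower in the block fit. Schip1, chosen after its values were seen and known from the axon initial segment, was lower as well (-1.06, 0.0168). None of these was called without the block. In cells of at least 2% ribosomal UMIs the block fit called 0 of 13 glutamate receptor and 0 of 3 neurotrophin genes. Over all cells 0 of 5 GABA-A receptor genes, 0 of 4 serotonin genes and 0 of 6 glucocorticoid response genes were called in either fit. The neuronal markers did not share a direction. The mean sum of the inhibitory markers was 0.94 in dorDG and 1.61 in venDG, and that of the mossy cell markers 0.727 and 0.824. The excitatory markers, at 4.29 and 4.02, and the granule markers, at 2.83 and 2.33, were higher in dorDG. The regions overlapped in each of these sums. The shares of Excitatory- and Inhibitory-like cells are given under cell shares. Tenm2, Tenm4 and Schip1 were among the top genes of unnamed cluster 3, as was Arhgap28. That cluster had a median of 0.642% ribosomal UMIs and held 26 of the 570 dorDG and 106 of the 1249 venDG cells. The part of cell makeup in these values was not tested.

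Calls higher in dorDG in the block fit comprised 4 of 12 immediate early genes (Fos, Egr1, Klf6 and Atf3), 3 of 12 heat shock genes, 2 of 8 cholesterol synthesis genes (Idi1 and Msmo1) and 2 of 14 myelin genes (Mbp and Mobp), with none lower, where 4.06% of all genes were called higher. In cells of at least 2% ribosomal UMIs the block fit called none of the genes of these 4 lists, and in cells below that share Egr1 (-1.83), Idi1 (-0.79) and Msmo1 (-0.30) had negative log2 fold changes without the block. Over all cells the medians of the lists without the block were 0.29, 0.02, 0.06 and 0.05. Fos, for instance, was at 12, 12.1, 15.1 and 20.1 in dorDG and at 11.0, 4.19, 22.2, 10.0 and 9.45 in venDG, so venDG FT replicate 3, which the block fit leaves out, was the highest of all 9. Of 89 ribosomal protein genes 1 (Rps14) was called higher without the block and 9 with it, and of 69 nuclear oxidative phosphorylation genes 0 and 1. None of the 13 mitochondrially encoded genes was called in either fit. The summed ribosomal protein level overlapped, from 486 to 598 in dorDG and from 446 to 584 in venDG.

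Cell classes were rebuilt from clusters and named by fixed markers. Granule-like cells made up clusters 5, 21 and 25, with 59 cells in dorDG and 61 in venDG. They carried Prox1 at 1.06 to 1.94 UMIs per 10000 in dorDG and at 1.23 to 2.29 in venDG. In the authors' own annotation of dorDG, 9 of these 59 cells are named granule cells, 26 inhibitory neurons, 21 excitatory neurons and 3 oligodendrocytes, so the class rests on the markers used here. In pooled cluster 5 Gad1 was at 0.697 and 1.04 and Gad2 at 0.174 and 0.260 (dorDG and venDG), beside Slc17a7, the vesicular glutamate transporter, at 2.35 and 3.37.

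In Granule-like cells 9 of 4625 genes were called (0.195%), 4 higher and 5 lower in dorDG. The 5 lower genes had separate groups, as did 44 genes in that direction in all (0.951%), against 43 genes higher in dorDG (0.930%). Cnih3 encodes an auxiliary subunit that slows AMPA receptor gating. It was at 0.347, 0.221, 0.329 and 0.354 in dorDG FT replicates 1, 2, 4 and 5 and at 2.47, 0.720, 1.73, 0.922 and 1.53 in venDG FT replicates 1 to 5. The lowest venDG replicate was above the highest dorDG replicate, and the log2 fold change was -2.26 ± 0.48 (edgeR adjusted p = 0.117).

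Ptpn5, the neuronal phosphatase STEP, was at 0.867, 0.996, 0.494 and 0.177 in dorDG and at 3.64, 2.06, 1.73, 2.46 and 1.91 in venDG (-1.69 ± 0.40, edgeR adjusted p = 0.187). Tenm4 was at 1.56, 0.609, 0.165 and 1.41 in dorDG and at 4.65, 2.36, 3.89, 3.69 and 2.80 in venDG (-1.85 ± 0.42, edgeR adjusted p = 0.187). Neither gene had any overlap between the regions, and Ptpn5 was chosen after its values were seen. Tenm4 was called lower in Granule-like cells as well as, in the block fit, over all cells, where it passed the filter through venDG only.

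The other 2 genes rested on few molecules. Cpne7, a calcium-dependent phospholipid-binding copine, had 0, 0, 0 and 1 UMIs in dorDG FT replicates 1, 2, 4 and 5 and 17, 2, 2, 2 and 10 UMIs in venDG FT replicates 1 to 5 (edgeR adjusted p = 0.106). Its fitted log2 fold change of -4.69 depends on the prior count and is no bound. Tdp2, a DNA repair enzyme that frees topoisomerase 2 from DNA ends, had 3, 2, 1 and 0 UMIs against 6, 5, 5, 3 and 8 (-2.44 ± 0.58, edgeR adjusted p = 0.187), and it did not pass the filter of the block fit. Cpne7, Tdp2 and Cnih3 averaged under 0.5 UMIs per 10000 in dorDG, so they passed the filter on low values only through venDG, where they are high.

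These differences had the same direction in each cluster. In clusters 5, 21 and 25, with cells of a region pooled, Cnih3 was at 0.435, 0.140 and 0.478 in dorDG and at 2.68, 0.717 and 1.13 in venDG. Tenm4 was at 1.48, 0.652 and 0.836 against 5.02, 2.48 and 1.51, and Ptpn5 at 1.13, 0.652 and 0.597 against 3.03, 1.93 and 2.26. These are values with no test, and cluster 25 held only 15 venDG cells.

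Other named genes were higher in Granule-like cells of dorDG. Mbp, which encodes myelin basic protein, had a log2 fold change of 1.5 ± 0.29 (edgeR adjusted p = 0.0862) and the myelin gene Mobp 1.20 ± 0.28 (edgeR adjusted p = 0.187), both described below. Stxbp6, a syntaxin-binding protein, was at 4.86, 4.65, 4.78 and 6.72 against 1.60, 1.54, 2.37, 2.15 and 1.27, without overlap. Since it was one of the markers that named the class, its values are a description. The granule marker Rfx3 was at 2.08 to 3.38 in dorDG and at 3.56 to 5.09 in venDG, the opposite order, and it was not called (edgeR adjusted p = 0.791).

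The block fit called 112 of 4633 genes in Granule-like cells (2.42%), 41 higher and 71 lower, and 8 of the 9 above. The adjusted p was 0.000605 for Tenm4 and 0.00177 for Ptpn5 (edgeR). For Cnih3 and Cpne7 it was 0.00894 and 0.000303 (edgeR). These 2 genes passed the filter on low values only through venDG, so their p-values are no added support. Nnat was called lower there (-2.14, edgeR adjusted p = 3.79e-05, against 0.838 without the block), at 0.347, 4.37, 0.329 and 0.177 in dorDG and at 2.91, 15.3, 1.08, 0.922 and 1.02 in venDG. Replicate 2 was the highest of both regions, and without venDG FT replicate 2 the log2 fold change of Nnat in the fit with no block was 0.13. Bdnf, the activity-dependent neurotrophin, was called lower (-1.25, 0.173), on 7, 22, 1 and 4 UMIs in dorDG and 7, 30, 3, 5 and 7 in venDG. Without the block its log2 fold change was -1.02 (edgeR adjusted p = 0.838) and ranged from -1.60 to -0.30 as 1 replicate was left out, smallest in size without venDG FT replicate 2. The receptor Ntrk3 (-0.74, 0.188) and Tenm2 (-0.95, 0.119) were called lower as well, and the potassium channel Kcnh5 higher (1.70, 0.0224). Trh, the hormone whose receptor is Trhr, was found in replicate 2 alone, at 4.59 in dorDG and 12.2 in venDG, and at 0 in the other 7 replicates.

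Calls in Granule-like cells were sensitive to single replicates. Their number was 0 without dorDG FT replicate 4 or 5 or venDG FT replicate 1 or 5, 3 without dorDG FT replicate 1 or 2, 4 without venDG FT replicate 4, 6 without replicate 3 and 18 without replicate 2. The log2 fold changes of Cnih3 (-2.45 to -1.99), Tenm4 (-2.27 to -1.58) and Ptpn5 (-2.03 to -1.48) nevertheless kept their sign in all 9 runs.

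**Figure D3:**
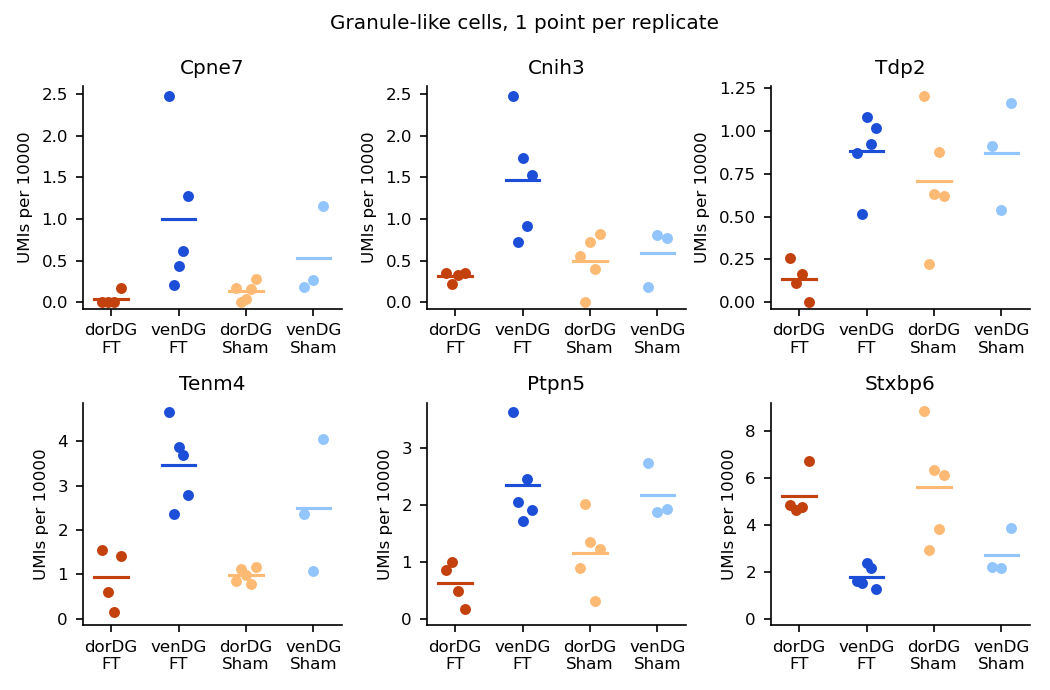
Levels of named genes in Granule-like cells, in UMIs per 10000, with 1 point per FT or Sham replicate and a line at the mean of each group. In FT, Cpne7, Cnih3, Tenm4, Ptpn5 and Tdp2 lie lower in the 4 dorDG replicates than in the 5 venDG replicates, and Stxbp6 lies higher.

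In Astrocyte-like cells (50 in dorDG, 138 in venDG) 11 of 3899 genes were called (0.282%), 7 higher and 4 lower. Groups did not overlap for 62 genes higher in dorDG (1.59%) and 37 lower (0.949%). Nnat was at 1.0, 0.227, 0.296 and 1.48 in dorDG and at 2.67, 3.26, 2.44, 1.91 and 3.20 in venDG, so all venDG replicates were higher (-1.93 ± 0.49, edgeR adjusted p = 0.126). In the block fit its log2 fold change was -1.99 and it was not called (edgeR adjusted p = 0.231). The dorDG replicates held 11, 15, 11 and 13 of these cells, so the lowest values of Nnat rest on few UMIs. Nnat was thus called lower in Astrocyte-like cells without the block, and over all cells and in Granule-like cells with it.

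Itih3, which encodes a hyaluronan-binding matrix protein, was at 7.0, 6.81, 8.89 and 9.11 in dorDG and at 16.2, 16.6, 14.8, 19.1 and 20.02 in venDG. The groups were well apart (-1.20 ± 0.30, edgeR adjusted p = 0.126, block 0.0313). Igsf1, an immunoglobulin superfamily membrane protein named after its values were seen, was at 0.593 to 1.06 in dorDG and 0.953 to 4.0 in venDG, with overlap (-1.89 ± 0.48, edgeR adjusted p = 0.126, block 0.432).

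Higher in dorDG were Pola2, a subunit of DNA polymerase alpha, at 1.0, 3.41, 1.19 and 0.847 against 0.50, 0.20, 0, 0.477 and 0.20, where it lay under the filter on average (2.66 ± 0.64, edgeR adjusted p = 0.126), and the tubulin Tubb4a, at 3.0, 1.59, 3.56 and 4.02 against 1.5, 0.798, 0.582, 0 and 0.601 (1.82 ± 0.46, 0.126). Neither was called in the block fit (edgeR adjusted p = 0.273 and 0.442), which called 6 of 3991 genes (0.150%). Mobp was at 8.0, 8.17, 11.6 and 11.0 against 3.67, 1.4, 1.63, 4.77 and 3.20 (1.78 ± 0.35, edgeR adjusted p = 0.0266). Without venDG FT replicate 1 there were 82 calls, without replicate 2 1 and without dorDG FT replicate 4 2, and 4 to 6 without dorDG FT replicate 1, 2 or 5 or venDG FT replicate 3 or 5. Without venDG FT replicate 2 edgeR's adjusted p was 0.416 for Nnat, Itih3, Pola2 and Tubb4a and 0.319 for Mobp.

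Mbp and Mobp were called higher in dorDG in several classes other than Oligodendrocyte-like cells. Myelin basic protein compacts the sheath, and its mRNA, like that of Mobp, is known to be carried out of the cell body into myelin. In all 6 other classes tested the lowest dorDG replicate of Mbp lay above the highest venDG replicate. Over these classes Mbp ranged from 25.8 to 73.6 UMIs per 10000 in dorDG and from 12.5 to 26.6 in venDG.

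Mbp in Granule-like cells was at 37.0, 49.4, 64.4 and 69.7 in dorDG and at 14.5, 16.9, 26.6, 19.97 and 19.2 in venDG. In Endothelial-like cells it was at 39.4, 37.6, 51.7 and 64.9 against 24.9, 15.996, 17.6, 18.5 and 15.2 (1.34 ± 0.21, edgeR adjusted p = 0.0158). In Astrocyte-like cells the log2 fold change was 1.30 ± 0.29 (edgeR adjusted p = 0.0934) and in OPC-like cells, oligodendrocyte precursors, it was 1.23 ± 0.21 (edgeR adjusted p = 0.0320). Microglia-like cells gave 1.09 (edgeR adjusted p = 0.287, block 0.000278) and Mural-like cells 1.23 (0.862, block 0.934), so Mbp was called in 4 of the 6 classes without the block and in 5 with it. In every class replicates 4 and 5 were the highest dorDG replicates. The classes were taken from the same pools, so counts of classes are not counts of independent observations.

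Oligodendrocyte-like cells differed less. Mbp was at 106, 106, 159 and 161 in dorDG and at 100, 82.0, 111, 121 and 112 in venDG, with overlap (0.36, edgeR adjusted p = 0.641, block 0.0489). Mobp was separate in 3 of the 6 other classes and called in Astrocyte-, Endothelial- and Granule-like cells.

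The 10 oligodendrocyte markers summed to 52.7 to 94.2 in dorDG and 18.9 to 33.8 in venDG in Astrocyte-like cells, and to 53.9 to 97.2 against 23.5 to 61.1 in Granule-like cells. Mbp and Mobp are 2 of the 10. The other 8 markers summed to 5.70 to 16.6 in dorDG and 3.39 to 28.5 in venDG in Granule-like cells, and to 8.40 to 20.5 against 4.32 to 9.34 in Astrocyte-like cells, and the regions overlapped in all 6 classes. The part of RNA from other cells in the Mbp and Mobp results was not tested. Lpar1, a lysophosphatidic acid receptor of myelinating cells, was at 3.96, 10.0, 4.45 and 12.1 over all dorDG cells and at 3.36, 1.35, 6.15, 1.76 and 4.22 in venDG. It was high in replicates 2 and 5 of dorDG in all 7 classes and was called in Astrocyte-like (1.78, edgeR adjusted p = 0.0969) and Granule-like cells (1.75, 0.187). With the block it was called over all cells (1.5, 0.105), in Oligodendrocyte-like cells and in 5 of the 6 other classes.

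In Sham rats the values of Mbp in these classes spread more widely, from 17.6 to 232 in dorDG and from 14.2 to 81.3 in venDG. Mbp and Mobp in Endothelial-like cells were called whichever FT replicate was left out (edgeR adjusted p of at most 0.148). In the other classes where they were called, the calls were lost in at least 1 such run, with edgeR adjusted p up to 0.730 for Mbp, reached in Astrocyte-like cells without dorDG FT replicate 5.

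**Figure D4:**
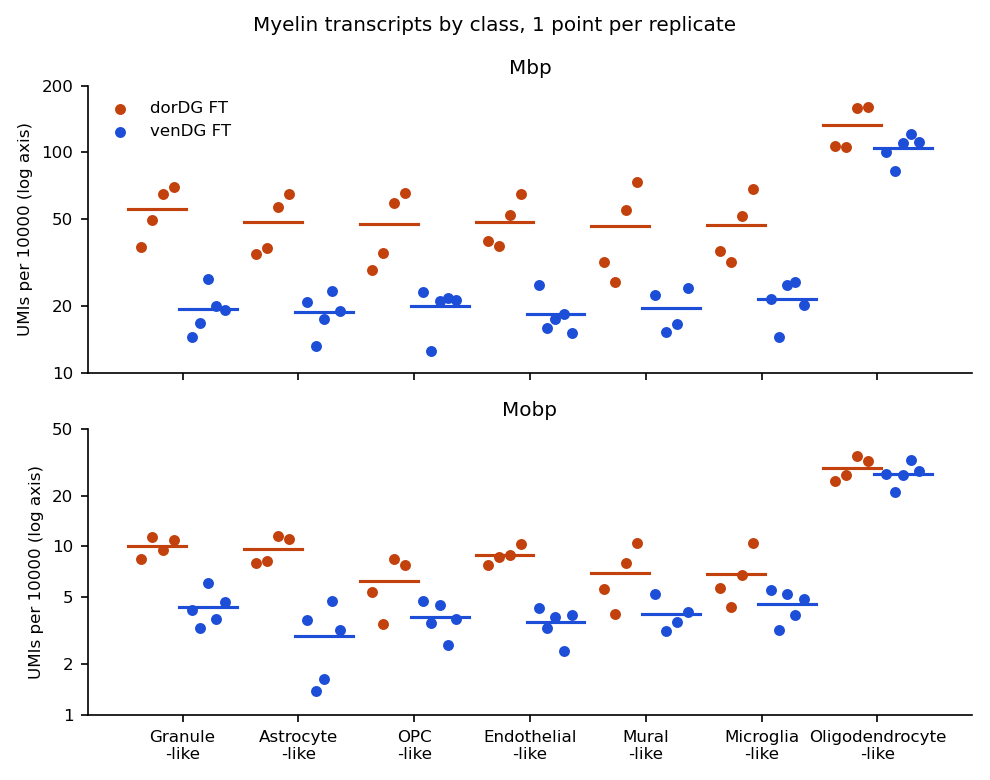
Levels of Mbp (upper panel) and Mobp (lower panel) by cell class in UMIs per 10000 on a log axis, with 1 point per FT replicate of dorDG and venDG and a line at each mean. For Mbp the regions are apart in every class but Oligodendrocyte-like, and for Mobp in Granule-, Astrocyte- and Endothelial-like cells.

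In Oligodendrocyte-like cells (109 in dorDG, 256 in venDG) 4 of 3270 genes were called (0.122%), all higher in dorDG, and 3 of them were unnamed loci. The fourth was Btg2, an antiproliferative immediate early gene. It was at 5.63, 9.09, 9.24 and 10.1 in dorDG and at 4.28, 3.89, 4.17, 4.89 and 2.90 in venDG, with no overlap (1.1 ± 0.20, edgeR adjusted p = 0.0848). Without dorDG FT replicate 5 or venDG FT replicate 2 or 5 its adjusted p was 0.324, 0.285 and 0.223 and the number of calls was 0 in each case. There were 2 calls without dorDG FT replicate 1, 8 without dorDG FT replicate 2 or venDG FT replicate 4 and 6 without venDG FT replicate 3. Groups did not overlap for 54 genes higher (1.65%) and 36 lower (1.10%).

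The block fit called 118 of 3281 genes (3.60%), 81 higher (2.47%) and 37 lower in dorDG. Among 12 immediate early genes tested, 4 were higher and none lower: Btg2, Fos (0.63, edgeR adjusted p = 0.0433), Egr1 (1.17, 0.0106) and Atf3 (1.05, 0.0558). Egr1, a zinc finger factor, was at 10.1, 11.1, 6.87 and 11.7 in dorDG and at 6.56, 3.31, 7.51, 5.59 and 2.96 in venDG. Among the dorDG replicates only replicate 4 fell within the venDG range, and the gene was not called without the block (0.93, 0.283).

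Cholesterol synthesis, on which myelin depends, had 3 of 11 genes higher and none lower in the block fit. Idi1, the isomerase of the isoprenoid steps, was at 6.54, 11.5, 2.78 and 7.91 in dorDG and at 4.51, 3.10, 6.01, 1.20 and 3.57 in venDG (block fit 1.20, edgeR adjusted p = 0.00559, without it 0.446). The methylsterol oxidase Msmo1 (0.87, 0.0134) and the HMG-CoA synthase Hmgcs1 (0.61, 0.192) were called with it. Number by number, Idi1 was higher in dorDG in all 4 pairs, which the overlapping ranges do not show. Of 11 heat shock genes, 4 were called higher and none lower, namely the co-chaperones Dnajb1 (0.63, 0.0225) and Dnaja1 (0.79, 0.0558), the Hsp110 chaperone Hsph1 (0.55, 0.160) and the small heat shock protein Cryab (0.63, 0.0753). Without the block Dnaja1 was not called, and without dorDG FT replicate 1 its log2 fold change was -0.15 in place of 0.33.

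Median log2 fold changes of these 3 lists without the block were 0.37, 0.44 and 0.30 for immediate early, cholesterol synthesis and heat shock genes, against -0.01 over all genes. Of 15 myelin genes tested, Mbp alone was called, in the block fit. A pair of further genes was chosen after their values were seen. Sat1, which acetylates spermidine and spermine, was higher (1.60, edgeR adjusted p = 0.000360), and the calcium-binding S100b was lower (-0.97, 0.0134). Sat1 reached 10.8 in venDG FT replicate 3, above all dorDG replicates (7.04 to 9.40).

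**Figure D5:**
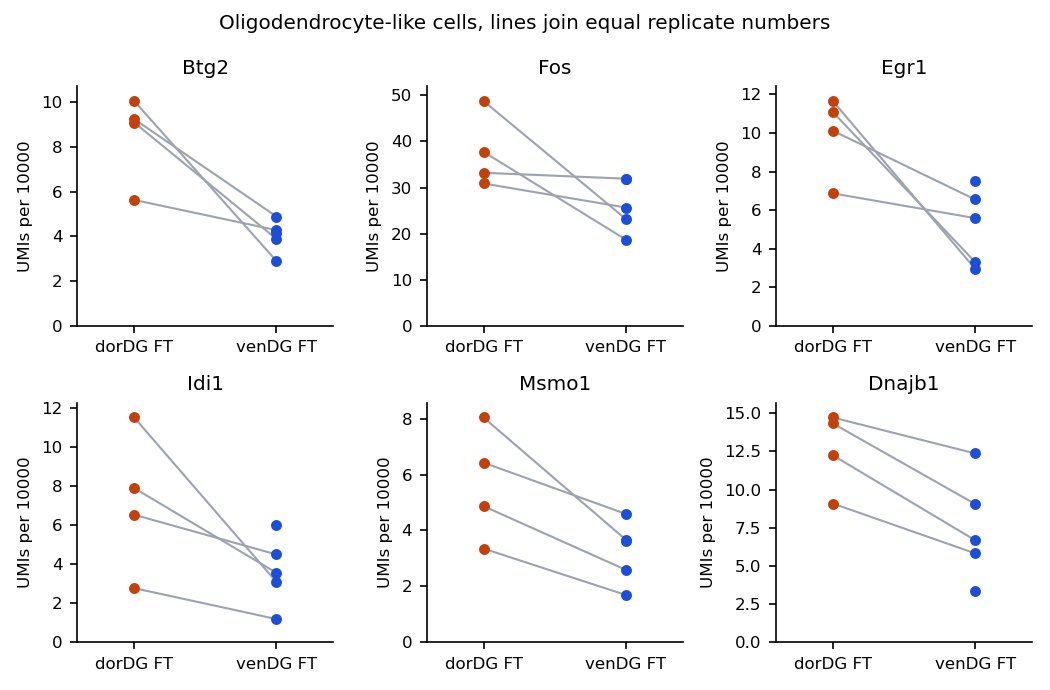
Levels of Btg2, Fos, Egr1, Idi1, Msmo1 and Dnajb1 in Oligodendrocyte-like cells, in UMIs per 10000, with a line joining dorDG FT and venDG FT replicates of the same number. The lines run down from dorDG to venDG for Btg2 in all 4 pairs, and venDG FT replicate 3 has no partner.

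In Microglia-like cells (94 in dorDG, 186 in venDG) 0 of 2738 genes were called by edgeR (0%), while DESeq2 called 14 and edgeR's unadjusted p was under 0.05 for 162. Without venDG FT replicate 1 there were 3 calls, and without replicate 5 1. The block fit called 36 of 2760 genes (1.30%), 27 higher and 9 lower. The 3 lower genes given next were chosen after their values were seen. Isg15, an interferon-induced ubiquitin-like modifier, was at 0.0641, 0.125, 0.435 and 0.110 in dorDG and at 1.27, 1.80, 1.16, 0.665 and 0.183 in venDG (block fit -2.42, edgeR adjusted p = 0.0347, without it 0.322). Of the venDG replicates, number 5 lay within the dorDG range. All dorDG values of Isg15 lay under the filter on low values and rest on few UMIs. Isg15 thus passed that filter through the venDG values only.

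Ifit3, another interferon-induced gene, was at 0.577, 0, 0.783 and 0.877 against 0.538, 6.21, 0.325, 1.77 and 2.11 (-1.86, 0.126), so venDG FT replicate 2 held its highest value, and without that replicate its log2 fold change was -0.94 in place of -1.98 in the fit with no block. The chemokine Ccl9 was at 3.78, 1.37, 3.92 and 0.658 against 7.29, 9.97, 4.78, 5.91 and 3.48 (-1.49, 0.0142). Of 12 immediate early genes tested, Jun (-1.69, 0.0347) and Egr1 (-0.89, 0.148) were called lower and none higher, and of 14 chemokine and cytokine genes on the list Cxcl1 was called higher (0.94, 0.136). Egr1 thus had opposite signs in Microglia-like and Oligodendrocyte-like cells, and the difference between the classes was not tested.

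In Endothelial-like cells (85 in dorDG, 141 in venDG) 5 of 3530 genes were called (0.142%), all higher in dorDG, and 23 in the block fit (0.649%). Besides Mbp, Mobp and Ttr they were Rplp1, an acidic protein of the ribosomal stalk, and Cct6b. Rplp1 was at 7.15, 7.72, 6.04 and 8.60 against 4.31, 2.48, 1.27, 2.24 and 3.45 (1.41 ± 0.28, edgeR adjusted p = 0.0758). It stood alone among 92 ribosomal protein genes tested there, whose median log2 fold change was -0.03. Its call was lost without dorDG FT replicate 5 (edgeR adjusted p = 0.204) or venDG FT replicate 2 or 4 (0.217 and 0.396). Cct6b was at 5.33, 3.28, 5.04 and 4.94 against 2.74, 1.43, 1.66, 1.95 and 2.30 (1.18 ± 0.26, edgeR adjusted p = 0.169), as over all cells. Leaving out venDG FT replicate 2 or 4 gave 2 calls, and replicate 3 or 5 3.

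OPC-like cells (48 in dorDG, 109 in venDG) gave 2 calls among 4293 genes (0.0466%), Mbp and Ttr, and 23 in the block fit (0.531%). No gene was called without dorDG FT replicate 4 or 5, and 1 without any 1 venDG replicate. Mural-like cells (39 in dorDG, 56 in venDG, with 4 venDG replicates of at least 5 cells) gave 0 of 3826 calls by edgeR (0%), with 175 genes at an unadjusted p under 0.05 and 0 by DESeq2, and 1 in the block fit, Ttr (0.0261%). Of 49 dorDG FT cells that the authors' annotation names mossy cells, 39 fell in the Mural-like class. Excitatory-, Inhibitory- and Erythroid-like cells had too few replicates of at least 5 cells to be tested.

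The shares of the classes did not differ past the threshold. Granule-like cells made up 10.5%, 14.7%, 6.87% and 6.06% of the dorDG replicates and 6.61%, 5.21%, 3.21%, 3.98% and 6.72% of the venDG replicates (9.54% ± 3.96, n = 4, against 5.14% ± 1.56, n = 5; two-sided exact permutation test, p = 0.0635, adjusted p = 0.262 over 11 classes). Mural-like cells were at 7.28% ± 2.25 against 4.43% ± 1.35 (exact permutation p = 0.0635, adjusted p = 0.262) and Excitatory-like cells at 2.06% ± 1.90 against 5.23% ± 2.45 (exact permutation p = 0.0952, adjusted p = 0.262). Inhibitory-like cells were 0 of 570 in dorDG, which allows a share of up to 0.526%, and 1.71% ± 1.3 in venDG, where replicate 4 also had none (exact permutation p = 0.0794, adjusted p = 0.262). This limit covers counting error only, whereas the ± values are SDs between replicates. The smallest p that 4 against 5 replicates can give is 0.0159.

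Oligodendrocyte-like cells ranged from 14.7% to 27.3% in dorDG and from 7.81% to 38.5% in venDG. In venDG FT replicate 2, 33.3% of the cells stayed unnamed, against 6.71% to 19.8% in the other 8 replicates. Cell depth did not differ past the threshold, with a median of 4563 ± 1241 UMIs per cell in dorDG and 3882 ± 1131 in venDG (exact permutation p = 0.397, adjusted p = 0.738). The median share of mitochondrial UMIs was 6.18% ± 0.449 against 5.71% ± 1.21 (p = 0.492 by exact permutation), that of ribosomal protein UMIs 4.85% ± 0.777 against 4.39% ± 1.51 (0.683), and that of oxidative phosphorylation UMIs 1.33% ± 0.25 against 1.26% ± 0.368 (0.857). None passed the threshold, which 1 measure alone could not have passed after adjustment with so few replicates.

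The dorDG and venDG replicates of Sham rats were fitted in the same way, and the interaction of region and treatment asks whether the regional difference differed between FT and Sham. Over all cells its answer rested on the replicate block. Without the block it gave 0 of 4161 calls by edgeR (0%), with 8 called by DESeq2 and 394 at an unadjusted edgeR p under 0.05, and 335 calls without dorDG Sham replicate 2. With the block it gave 408 of 4183 (9.75%). That number was 0 to 1263 as 1 pair of replicates was left out, 0 without FT pair 4 or 5 or Sham pair 3, 4 or 5 and 1263 without Sham pair 2, and it was 0 in cells of at least 2% ribosomal UMIs, with 152 genes at an unadjusted p under 0.05. In Sham alone, 0 of 4313 genes differed between regions over all cells without the block (0%), with 361 at an unadjusted edgeR p under 0.05, and 105 with it (2.43%).

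The genes called over all cells in the interaction with the block included Cct6b (1.55 ± 0.36, edgeR adjusted p = 0.144), Tenm4 (-1.01, 0.154), Tenm2 (-1.42, 0.144), Nlgn1 (-0.97, 0.144) and the receptor Grm5 (-1.63, 0.144). Fos (1.30, 0.196), Egr1 (1.08, 0.197) and Idi1 (1.46, 0.144) were called with a positive sign. Each of these calls was lost in most of the 9 runs that left out a pair. Cct6b, Tenm2 and Grm5 were each called in 3 of them, Tenm4, Nlgn1 and Idi1 in 2, and Fos and Egr1 in 1.

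In Oligodendrocyte-like cells the interaction gave no call by edgeR without the block, with 164 genes at an unadjusted p under 0.05, and 12 of 3513 genes with it (0.342%), or 2 to 72 as 1 pair was left out, 2 without FT pair 2 and 72 without Sham pair 1. Sat1 and Idi1 were called in all 9 of those runs. In Sham, Sat1 was at 3.03, 7.27, 1.04, 2.57 and 1.63 UMIs per 10000 in dorDG replicates 1 to 5 and at 5.61, 8.76, 5.19, 4.11 and 5.33 in venDG, lower in dorDG in all 5 pairs, whereas it was higher in dorDG in all 4 FT pairs. The interaction was 2.53 ± 0.35 (edgeR adjusted p = 0.000393). Idi1 in Sham was at 1.35, 6.38, 6.97, 2.87 and 2.53 in dorDG and at 4.44, 7.55, 7.64, 4.45 and 6.57 in venDG, again lower in all 5 pairs against higher in all 4 FT pairs (1.97 ± 0.34, edgeR adjusted p = 0.00749). Without the block their interactions were not called (1.59 and 1.48, unadjusted p = 0.0110 and 0.0113). Egr1, Atf3, Msmo1, Dnaja1 and Hsph1 were called as well, with interactions of 1.58, 1.73, 1.39, 1.21 and 1.39. They were called in only 4, 4, 5, 3 and 3 of the 9 runs, in that order. This class, too, was made of its clusters in unlike shares in FT and Sham. Cluster 6, with a median of 0.578% ribosomal UMIs, held 188 cells, of which 13 were dorDG FT, 30 venDG FT and the rest Sham. Cluster 0, with Idi1 and Fos among its top genes, held 247 cells, of which 44 were dorDG FT and 121 venDG FT. The part of this makeup in the interaction was not tested.

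In Granule-like cells the interaction gave 0 of 4669 calls (0%) without the block, with 206 genes at an unadjusted edgeR p under 0.05, and none of 4693 with it, with 112. The class was made of different clusters in FT and Sham. Cluster 25 held 21 dorDG and 15 venDG cells of FT and none of Sham, and cluster 5 held 115 of the 127 dorDG Sham cells and 25 of the 31 venDG Sham cells. The Sham log2 fold changes were -1.42 for Tenm4, -1.08 for Ptpn5 and 1.0 for Stxbp6, the same signs as in FT, at edgeR adjusted p of 0.850 to 0.870. Cnih3 (-0.04) and Tdp2 (-0.27) were near 0 in Sham, and their interaction had unadjusted p of 0.00833 and 0.00604 and adjusted p of 0.985 (edgeR). Nnat in Astrocyte-like cells had -1.79 in Sham and -1.93 in FT, and Itih3 -1.03 and -1.20. Pola2 had 0.07 in Sham and 2.66 in FT there, and Tubb4a -0.51 and 1.82, with unadjusted interaction p of 0.00561 and 0.00228 and edgeR adjusted p of 0.999 for both. Rplp1 in Endothelial-like cells had -0.54 in Sham and 1.41 in FT, and its interaction was called with the block (1.57 ± 0.37, edgeR adjusted p = 0.129), where 6 of 3646 genes were (0.165%). Btg2 in Oligodendrocyte-like cells had -0.44 and 1.1, and its interaction was called in neither fit (edgeR adjusted p = 0.315 with the block). Cct6b over all cells had the opposite sign in Sham (-0.51, interaction without the block 1.61 ± 0.49, edgeR adjusted p = 0.518).

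Within OPC-like cells, 1 of 4366 genes (0.0229%) passed the interaction test without the block and 3 of 4382 (0.0685%) with it. Mthfd1l, a mitochondrial enzyme of folate metabolism chosen after its values were seen, was at 4.96, 8.45, 1.52 and 2.74 in dorDG FT and at 1.81, 2.91, 1.07, 1.96 and 1.06 in venDG FT. In Sham it was at 0.332 to 1.24 in 3 dorDG replicates and at 1.65 to 18.3 in 4 venDG replicates. The regional difference was 1.37 ± 0.39 in FT (edgeR adjusted p = 0.635) and -3.03 ± 0.64 in Sham (edgeR adjusted p = 0.159), and the interaction was 4.38 ± 0.83 (edgeR adjusted p = 0.0277) without the block and 4.69 ± 0.56 (3.51e-08) with it. The block fit kept only Sham numbers 1 and 2, the only ones with at least 5 OPC-like cells in both regions. The dorDG Sham replicates 1, 2 and 5 held 19, 7 and 5 such cells. This interaction was not refitted with a replicate or a pair left out.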

How the data were processed

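Single-cell 3′ RNA-seq of dorDG and venDG was used. The deposited tables hold UMI counts per gene and cell. Per the labels, the submitters' processing notes list Cell Ranger, Seurat 3 and the build rn5. The authors had filtered cells and, for dorDG, deposited a table of other per-cell information with cell type names, which was read only to set beside the classes. The authors' log-normalized venDG table was not used, and 170 columns of cells whose names carry an unexplained suffix were left out. No genome of that build was used, so no coordinates are given.

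Counts were summed per label replicate over all cells, over cells of at least 2% ribosomal UMIs and per class. Genes averaging 0.5 or more UMIs per 10000 entered the fit across all genes, made with the edgeR 4.0.16 quasi-likelihood test (R 4.3.3) after TMM normalization. A call needed a Benjamini-Hochberg adjusted p no higher than 0.2 and a log2 fold change beyond 0.32 in size, the study's thresholds. DESeq2 1.42.0, limma 3.58.1 (pseudocount 0.01) and the other settings named in the closing section were alternatives. The script was tested on simulated data. Classes came from scanpy 1.11.5 (2000 variable genes, 30 components, 15 neighbours, Leiden resolution 2.0). A class needed 3 of its markers at 2-fold and in 10% of cells, and at least 5 cells in each of 3 replicates per region to be tested. A cluster stayed unnamed where its top genes held more markers of another list. It also did where they held none of its own and its cells were far under the median UMIs of their reactions. Clusters 19 and 22, with 10 microglia and 9 astrocyte markers, stayed unnamed by these rules. A tie of granule and excitatory markers was given to Granule, a choice made after the tie was seen. Doublets were not called.

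Same-numbered replicates of the 2 regions deviated together (correlation 0.121 to 0.398 over 4 pairs of all cells, against -0.374 to 0.305 for other pairs; 0.215 to 0.325 in cells of at least 2% ribosomal UMIs). As every same-number correlation was over 0.1, the block was applied. In Sham the 5 same-number correlations were 0.203 to 0.565, and the interaction was also fitted with treatment and number together as a block. The labels do not say what a number shares. The study's methods give the pooled animals per treatment group and not per region, so the regions may share rats. The fit without the block treats the regions as independent. Within FT groups, none of 16 pairs of replicates was alike within counting error (2.97 to 17.1 for the chi-square statistic per degree of freedom). Shares of cells and medians over cells were tested over replicates by exact permutation, two-sided, at 0.05.

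Named genes are the 10 highest and 10 lowest log2 fold changes over all cells, and the 3 highest and 3 lowest within a class, among called named genes whose groups do not overlap, and listed genes that were called or moved most. Lpar1, Arhgap28, Trh and the others marked so in the text were picked after seeing their values. The cells, gene lists, markers and tests were chosen with earlier results of these data known. Some results are not reported here. Depth is given as UMIs per replicate.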

Additional observations from a re-analysis of the deposited data

Results flagged for a closer look

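In 39 of 275 groups of 4 or 5 replicates the highest or lowest replicate lay far from the others, and 25 of them were Ttr or Arhgap28. Chance flags about 1 in 20 groups of unselected values, but several of these genes were chosen after their values were seen and recur over classes, so the 2 shares cannot be compared. Ttr in dorDG FT replicate 4 was at 45.6 UMIs per 10000 in Astrocyte-, 20.6 in Endothelial-, 23.4 in Granule-, 17.9 in Microglia-, 21.8 in Mural-, 23.1 in OPC- and 18.9 in Oligodendrocyte-like cells, 21.8 over all cells and 21.6 in cells of at least 2% ribosomal UMIs. In venDG FT, Ttr stood apart at 0.400 in Astrocyte-, 0.230 in Endothelial- and 0.354 in OPC-like cells of replicate 5 and at 0.296 in Microglia-like cells of replicate 4.

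Arhgap28 in venDG FT replicate 2 was at 38.3 in Astrocyte-, 79.2 in Endothelial-, 93.9 in Granule-, 41.6 in Microglia-, 30.7 in Mural-, 5.62 in OPC- and 19.9 in Oligodendrocyte-like cells, 71.7 over all cells and 8.44 in cells of at least 2% ribosomal UMIs. In dorDG FT it stood apart at 0.212 in Astrocyte-like cells of replicate 5 and, in replicate 2, at 0.375 in Microglia- and 0.0554 in Oligodendrocyte-like cells.

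In Granule-like cells replicate 2 stood apart in both regions for Trh (4.59 in dorDG, 12.2 in venDG) and Nnat (4.37 and 15.3). Others there were Cpne7 (0.177) and Stxbp6 (6.72) in dorDG FT replicate 5, and Rfx3 in dorDG FT replicate 2 (3.38) and venDG FT replicate 1 (5.09). Over all cells it was Dcn in dorDG FT replicate 1 (0.0671). Isg15 in Microglia-like cells of dorDG FT replicate 4 (0.435), Mbp in OPC-like cells of venDG FT replicate 2 (12.5) and Pola2 in Astrocyte-like cells of dorDG FT replicate 2 (3.41) were the remaining genes. Among cell shares, Astrocyte-like cells were at 13.1% in dorDG FT replicate 5 and Microglia-like cells at 10.2% in dorDG FT replicate 2.

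The regional difference of Mthfd1l in OPC-like cells differed between FT and Sham by 4.38 on the log2 scale (edgeR interaction adjusted p = 0.0277).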

How the results depend on the processing

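Over all cells 11 genes were called. There were 148 with DESeq2, 269 with the replicate block, 49 with no filter on low counts, 21 with the study's cell filter and 20 in cells under 2% ribosomal UMIs. No gene was called with all 4 groups in the fit, the first reactions only (an alternative chosen after seeing the data), limma, the low-ribosomal share as a covariate or an adjusted p of at most 0.05. In cells of at least 2% ribosomal UMIs the 0 calls became 20 with DESeq2, 8 with no filter and 7 with the replicate block, and the interaction's 0 became 8 with DESeq2 and 408 with the replicate block, an alternative chosen after seeing the data. The 31 calls within classes became 319 with the replicate block: 6 in Astrocyte-, 23 in Endothelial-, 112 in Granule-, 36 in Microglia-, 1 in Mural-, 23 in OPC- and 118 in Oligodendrocyte-like cells. DESeq2 gave 4, 14, 1 and 9 calls in Astrocyte-, Microglia-, OPC- and Oligodendrocyte-like cells. The cause of these differences was not tested.

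Leaving out 1 replicate gave 0 to 37 calls over all cells, 0 to 6 in cells of at least 2% ribosomal UMIs, 0 to 335 for the interaction and 9 to 98 within classes (1 to 82 in Astrocyte-, 2 to 7 in Endothelial-, 0 to 18 in Granule-, 0 to 3 in Microglia-, 0 to 2 in OPC- and 0 to 8 in Oligodendrocyte-like cells). No class share and no per-cell measure passed the threshold in any run. With so few replicates, 1 share or measure alone could not have passed it after adjustment.

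Signs turned for genes not called without the replicate block and for shares that had not passed the threshold. Over all cells, in those under 2% ribosomal UMIs, Egr1 was at -1.83, Idi1 at -0.79 and Msmo1 at -0.30. Differences in class share turned for Erythroid-like cells (-0.528 points in cells of at least 2% ribosomal UMIs, -0.0360 with the replicate block), Microglia- (-0.25) and Oligodendrocyte-like cells (0.638; 4.26 with the block), OPC-like (0.286 with the block) and unnamed cells (0.369 at resolution 1.0). Means in place of medians gave -0.198 points for the mitochondrial and -0.00174 for the oxidative phosphorylation share. Leaving out 1 replicate turned Nnat (-3.99 to 0.13) and Trh (-7.44 to 6.66) in Granule-like cells, and Dnaja1 in Oligodendrocyte-like cells (-0.15 to 0.78). It turned the shares of Erythroid- (-0.109 to 0.317), OPC- (-1.20 to 0.286), Oligodendrocyte-like (-3.41 to 4.26) and unnamed cells (-7.24 to 0.296), and the ribosomal (-0.151 to 0.825) and oxidative phosphorylation (-0.0514 to 0.187) medians. Granule-like cells of at least 2% ribosomal UMIs could not be fitted, and resolution 1.0 gave no Inhibitory-like class.

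In dorDG, Mural-, OPC-, Astrocyte- and Granule-like classes held 39, 48, 50 and 59 cells, which limits the depth behind each value.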
